A study of Mus musculus with 6 samples.

Results

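The regions of open chromatin assigned to 10 AP-1 and immediate early genes (Jun, Junb, Jund, Fos, Fosb, Fosl2, Maff, Atf3, Egr1 and Ier2) were examined in lung endothelial cells of CSE-KO and WT mice. A region was taken when the deposited table gave it the symbol of one of these genes, or, where the table gave no gene, when the nearest protein-coding start site of the table lay within 100 kb and belonged to one of them. This gave 58 of 58172 regions, 19 by the table's own gene and 39 by distance, and each of the 10 genes had at least 1. Atf3 is written in the table with a trailing semicolon, which was removed before matching. Of the 58 regions, 8 were promoter regions, with their centre within 1 kb of the table's start site, and 50 were distal. Distance alone says nothing of which gene a region acts on.

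Open chromatin was read by ATAC-seq: the transposase Tn5 cuts and tags DNA that is not packed away. There were 3 libraries labelled CSE-KO and Cre-positive, and 3 labelled WT and Cre-negative. CSE is cystathionine gamma-lyase, the cysteine-making enzyme encoded by Cth. The labels do not say in which cells of the mice it was lost. Cre and the loss of the enzyme differ together between the groups and cannot be told apart. The driver of Cre, the age and sex of the mice and whether each library came from its own animal are not given in the labels, so p-values cover the spread among these libraries, which may be technical. The values are scaled between libraries and rounded. Fewer cells with an open site and a less open site in each cell cannot be told apart.

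AP-1 is a family of transcription factors that bind DNA as pairs of basic leucine zipper proteins, made of Jun proteins with Jun, Fos, ATF or Maf proteins. Many AP-1 subunits are immediate early genes, which are transcribed within minutes of a stimulus by factors already present in the cell. In endothelium they respond to growth factors, cytokines and blood flow. Their promoters are usually open before the stimulus, and enhancers at a distance add to their output.

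The targeted gene separated the groups: the Cth promoter region had values of 11, 6 and 2 in CSE-KO and 195, 157 and 167 in WT. Total values were close, at 5437296 to 5547417 in CSE-KO and 5242490 to 5368491 in WT, with every CSE-KO total above every WT total. Up to 100, the CSE-KO columns skipped 35 to 39 whole numbers and the WT columns skipped 0, so 1 read was worth about 1.54 to 1.64 units in CSE-KO and about 1 or less in WT. The CSE-KO columns therefore rest on about 3320000 to 3610000 reads, fewer than those of WT. Of 10 endothelial markers 8 had a promoter region, with summed values of 1072 to 1184 in CSE-KO and 907 to 1016 in WT. Of all 56 regions of the endothelial markers 4 were called higher and 15 lower in CSE-KO, where the shares over all regions tested were 7.70% and 9.60%. Among their promoter regions 3 were higher and 2 lower, where the shares over all promoter regions were 5.23% and 3.29%. Of 10 leukocyte markers only Spi1 and Cd68 had a promoter region, with sums of 175 to 186 in CSE-KO and 247 to 284 in WT. Ptprc, the pan-leukocyte marker, had none, and neither did Pecam1 and Sox17 among the endothelial markers. A missing promoter region therefore does not show that a cell type is absent. The 3 of 10 mural and fibroblast markers with a promoter region summed to 228 to 263 in CSE-KO and 154 to 159 in WT. The 4 of 10 lung epithelial markers with one summed to 152 to 221 in CSE-KO and 172 to 208 in WT. Of 8 leukocyte regions 0 were called higher and 1 lower, the latter a promoter region. Of 23 mural and fibroblast regions 1 was higher, a promoter region, and 3 lower. Of 32 lung epithelial regions 3 were higher, 1 of them a promoter region, and 2 lower. The part of other cell types in the differences below was not tested.

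The promoters of 2 Jun genes and 2 Fos genes are shown because they are the start sites whose open regions the first results describe. The lines give the 250 bases before the RefSeq start (build GRCm38.p6, 5' to 3' on the gene's strand), and capitals mark the motifs found on either strand.
Jun, chr4:95052223-95052472, minus strand: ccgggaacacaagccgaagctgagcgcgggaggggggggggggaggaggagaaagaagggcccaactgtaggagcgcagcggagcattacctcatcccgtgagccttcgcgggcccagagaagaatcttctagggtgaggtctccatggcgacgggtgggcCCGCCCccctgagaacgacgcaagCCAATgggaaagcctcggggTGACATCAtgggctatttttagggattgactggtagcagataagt
Junb, chr8:84978749-84978998, minus strand: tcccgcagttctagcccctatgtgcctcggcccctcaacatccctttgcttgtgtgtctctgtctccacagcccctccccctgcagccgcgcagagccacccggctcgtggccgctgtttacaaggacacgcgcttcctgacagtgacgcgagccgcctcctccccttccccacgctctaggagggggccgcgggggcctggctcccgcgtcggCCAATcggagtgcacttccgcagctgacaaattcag
Fos, chr12:85473640-85473889, plus strand: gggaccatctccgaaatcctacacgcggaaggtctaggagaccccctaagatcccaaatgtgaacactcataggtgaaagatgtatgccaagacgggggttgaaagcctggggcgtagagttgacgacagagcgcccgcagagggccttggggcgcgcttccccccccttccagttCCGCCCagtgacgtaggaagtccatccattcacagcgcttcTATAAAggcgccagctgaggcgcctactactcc
Fosb, chr7:19310046-19310295, minus strand: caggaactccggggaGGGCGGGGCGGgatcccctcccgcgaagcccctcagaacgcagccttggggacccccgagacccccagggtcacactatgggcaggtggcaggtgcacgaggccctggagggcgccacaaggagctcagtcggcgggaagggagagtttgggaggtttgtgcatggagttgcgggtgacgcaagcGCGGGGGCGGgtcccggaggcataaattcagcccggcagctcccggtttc
The windows of Jun, Fos and Fosb lay wholly inside a member region, and 199 of the 250 bases of Junb did.

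Of the 10 member genes 8 had a RefSeq window, in 10 windows in all, 3 of them for Maff. Egr1 and Ier2 had none, so their promoters were not searched. The windows of Jund and of the first Maff start had 0 bases in a member region. The pattern TGANTCA, used for the AP-1 site with any base at N, was found in 0 of the 10 windows. It was in 6.75% of all 32851 RefSeq windows of this length, a share that counts every base at N. The longer octamers below are not covered by this pattern. The Jun window holds the octamer TGACATCA, 45 bases before the start, which resembles the cyclic AMP response element (CRE) TGACGTCA. That octamer was in 2 of the 10 windows, at Jun and a Maff start, against 2.93% of all windows. An exact CRE was in 1, at another Maff start, against 1.55%. The EGR site GCGNGGGCG, the kind of site that Egr1 binds, was in 3 of the 10 windows (Fosb, Fosl2 and a Maff start) against 4.70%, and at each of them it overlaps a GC box. The GC box GGGCGG was in 7 of 10 windows against 32.7%, the CCAAT box in 2, at Jun and Junb, against 33.8%, and the TATA box TATAAA in 1, at Fos, against 12.4%. The CArG box, bound by serum response factor, was in 0 of the 10 windows, which leave out Egr1 and Ier2, and in 1.47% of all windows. A match is a run of letters and not a measured site, and sites farther out lie beyond these windows.

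The member promoters did not pass the test. Of 8 promoter regions, 0 were called higher in CSE-KO, where the share over all promoter regions tested was 5.23%, and 0 were called lower, where it was 3.29%, or 8.52% in either direction (limma, adjusted p under 0.05). An unadjusted p under 0.05 was reached by 23.9% of all promoter regions and by 1 of the 8, at Fosb. With limma's trend and robust options 2 were called, both higher in CSE-KO, at Jun (adjusted p = 0.00622) and Jund (adjusted p = 0.0256). In that fit calls over all regions also rose, from 10057 to 15448. The median log2 change was -0.047 over the 8 and 0.11 over all 13246 promoter regions, with 4 above 0 and 4 below.

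**Figure D1:**
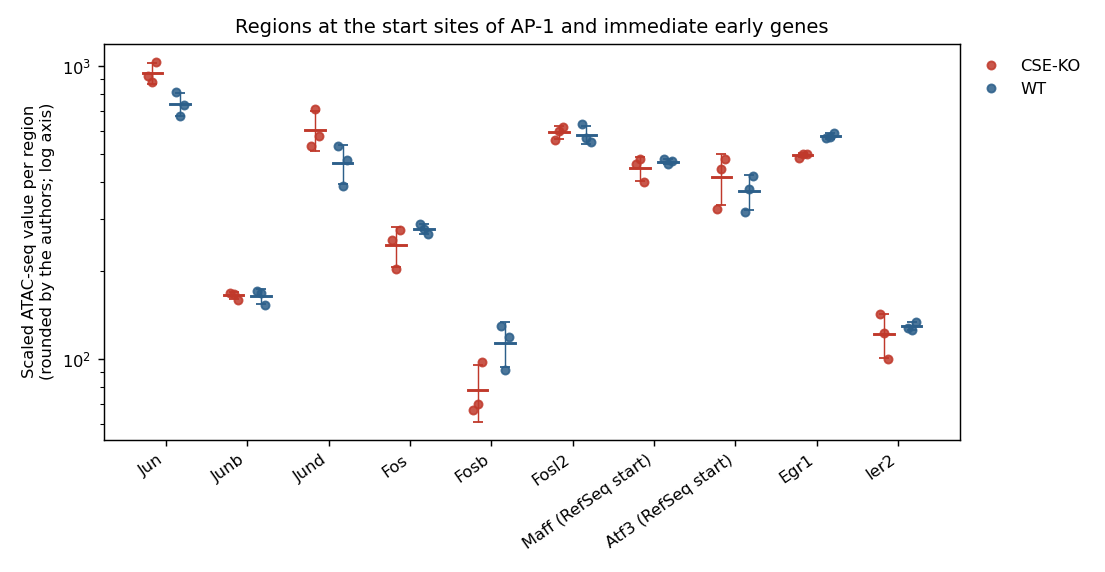
Value of each library (points) with the mean (bar) and SD (whiskers) in 3 CSE-KO and 3 WT libraries, on a log axis, at the 8 promoter regions and at the regions that hold a RefSeq start of Maff and of Atf3. Among these 10 regions, which differ in width, the groups are apart only at Jun, where CSE-KO is above WT, and at Egr1, where it is below.

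Among the Jun proteins, Jun, the founding AP-1 subunit, had the widest promoter region, 2030 bp on chromosome 4 (chr4:95051448-95053478). Its values were 923, 879 and 1029 in CSE-KO and 811, 676 and 732 in WT. Every CSE-KO library was above every WT library, yet the log2 change of 0.35 ± 0.16 (SE) did not pass (adjusted p = 0.18). Junb, a Jun protein that often opposes Jun, had 168, 167 and 159 in CSE-KO and 171, 168 and 153 in WT (chr8:84978504-84978947). The groups overlapped (log2 change 0.0071 ± 0.15, adjusted p = 0.979). Jund, the most constitutively expressed of the 3, had its only region inside the gene (chr8:70698444-70700038). It held 531, 711 and 574 in CSE-KO and 532, 390 and 478 in WT (log2 change 0.38 ± 0.2, adjusted p = 0.23). Its lowest CSE-KO library lay just below its highest WT library. The RefSeq start of Jund is 1.5 kb from the centre of this region, outside it.

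Of the Fos proteins, which pair with Jun proteins, Fos had 255, 202 and 276 at its promoter in CSE-KO and 288, 277 and 267 in WT (chr12:85473424-85474314, log2 change -0.19 ± 0.18, adjusted p = 0.485). The highest CSE-KO library was within the WT range. Fosb had 67, 70 and 98 in CSE-KO and 130, 92 and 119 in WT (chr7:19310015-19310477, log2 change -0.54 ± 0.22, unadjusted p = 0.0463, adjusted p = 0.139 by limma). One CSE-KO library exceeded the lowest WT library. Fosl2, a more slowly induced Fos protein, had 559, 599 and 617 in CSE-KO and 630, 566 and 549 in WT (chr5:32135115-32136281, log2 change 0.026 ± 0.16, adjusted p = 0.926). The RefSeq start of Fosl2 is 0.774 kb from the centre of this region, outside it. Per kb of region, the Fosl2 promoter had the highest level of the 8, 507 in CSE-KO and 498 in WT. The Fosb promoter had the lowest, 169 in CSE-KO and 246 in WT.

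Egr1, a zinc finger factor of the early response that is not an AP-1 subunit, had 485, 501 and 500 in CSE-KO and 566, 572 and 590 in WT at its promoter region on chromosome 18, which overlaps the RefSeq span of the gene (chr18:34859888-34861627). Every CSE-KO library was below every WT library, but the change was small (log2 -0.22 ± 0.15, adjusted p = 0.34). Ier2, a nuclear protein of the early response, had 142, 123 and 100 in CSE-KO and 128, 126 and 134 in WT (chr8:84662538-84662980, log2 change -0.1 ± 0.18, adjusted p = 0.735). Groups overlapped at the Ier2 promoter. Over the 8 promoter regions the groups did not overlap at 1 with CSE-KO above (23.9% of all promoter regions) and at 1 with CSE-KO below (12.1%).

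Maff, a small Maf protein that lacks an activation domain, and Atf3, a stress-induced member of the ATF family, had no region within 1 kb of the start site the table uses. RefSeq places further starts inside regions counted as distal here. The Maff region holding them (chr15:79347180-79348408) had 461, 481 and 400 in CSE-KO and 479, 461 and 472 in WT, with overlapping groups (adjusted p = 0.768). The Atf3 region holding the RefSeq start (chr1:191182439-191183724) had 325, 446 and 482 in CSE-KO and 318, 379 and 421 in WT, also overlapping (log2 change 0.15 ± 0.21, adjusted p = 0.653). Counting both as promoters left the promoter calls at 0.

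Away from the start sites, 12 of the 50 distal regions passed the test, and they lay at 4 of the 10 genes: Jun, Fosl2, Maff and Fos. These were also all the calls among the 58 regions, 4 higher (7.70% of all regions tested) and 8 lower (9.60%). Of the 50, 4 (8%) were higher in CSE-KO, where the share over all 44883 distal regions was 8.43%, and 8 (16%) were lower, where it was 11.5%, or 19.9% in either direction. Neither count is far from its background. The median log2 change was -0.23 over the 50 and -0.058 over all distal regions, with 19 above 0 and 31 below. The groups did not overlap at 6 of the 50 with CSE-KO above (17.5% of all distal regions) and at 19 with CSE-KO below (23.0%).

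**Figure D2:**
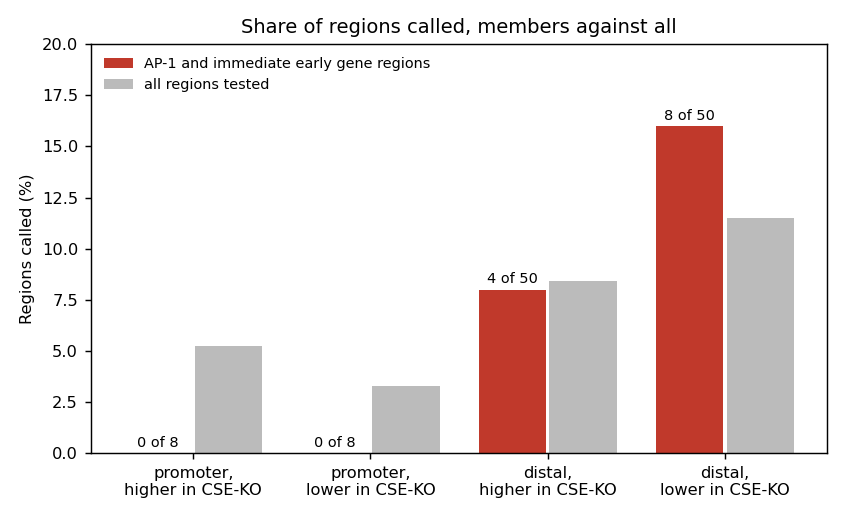
Percent of promoter and distal regions called higher or lower in CSE-KO, for the AP-1 and immediate early gene regions (red, with counts) and for all regions tested (grey). The distal share called lower is 16% for the members and 11.5% for all regions, and the promoter shares are 0 of 8 in both directions.

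**Figure D3:**
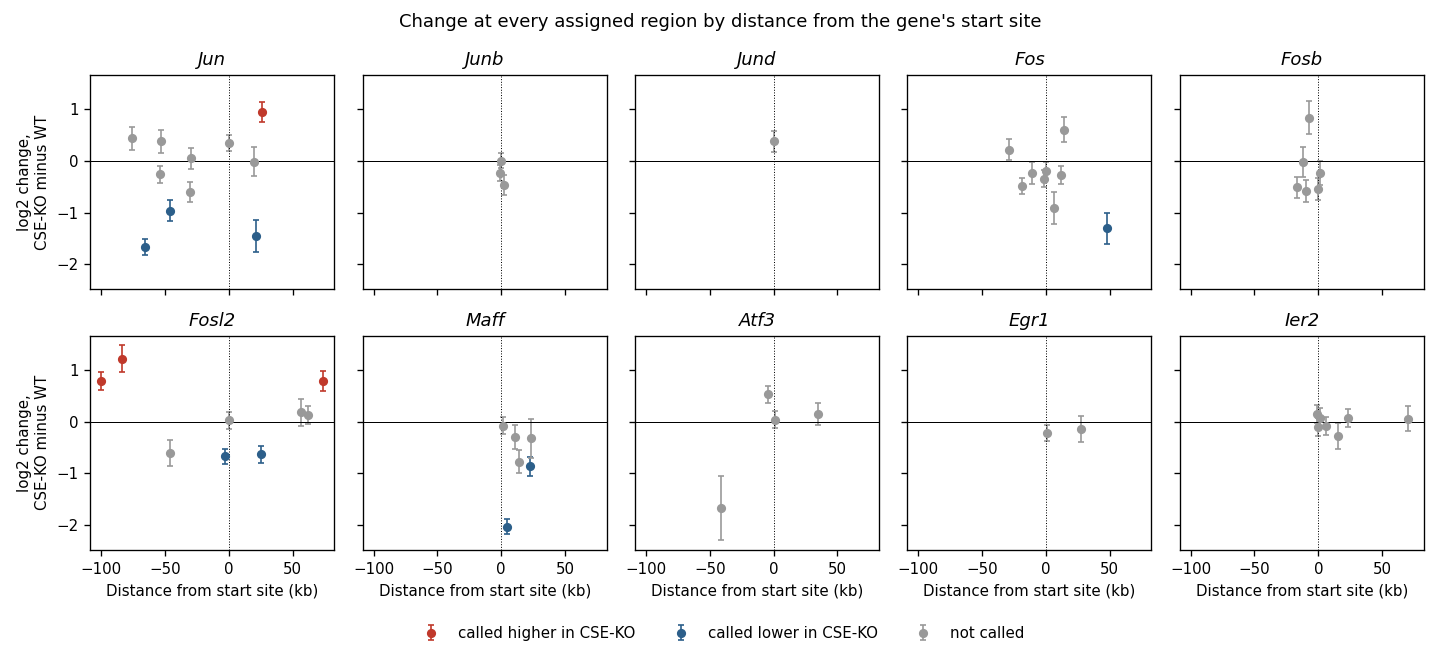
Log2 change (CSE-KO minus WT) with its SE at each of the 58 regions against the distance in kb from the gene's start site, with upstream to the left. Red points were called higher, blue lower and grey not called, and the calls sit at Jun, Fosl2, Maff and Fos.

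The largest fall among the 58 regions was inside Maff. The region 4.95 kb downstream of the start site (chr15:79351238-79351896, within the RefSeq span of Maff, where exon and intron were not told apart here) had 69, 75 and 74 in CSE-KO and 294, 296 and 311 in WT. The groups were far apart and each was tight: the mean was 72.7 ± 3.21 in CSE-KO and 300.3 ± 9.29 in WT (SD, n = 3 each), a 4.09-fold fall (log2 change -2.03 ± 0.15, adjusted p = 0.00167 by limma). A region 22.4 kb downstream, inside the neighbouring gene Tmem184b (chr15:79368362-79369645), had 369, 282 and 277 in CSE-KO and 572, 549 and 546 in WT. It fell 1.81-fold (adjusted p = 0.0207), but no longer passed when WT replicate 1, 2 or 3 was left out (adjusted p = 0.0789, 0.0743 and 0.0737). Of the 2 regions between them, the one 13.7 kb downstream was just short of the threshold, with 90, 60 and 56 in CSE-KO and 129, 110 and 108 in WT (adjusted p = 0.0548). The one 11 kb downstream had 47, 55 and 33 in CSE-KO and 60, 47 and 57 in WT, with overlapping groups (adjusted p = 0.399). All 6 Maff regions had a log2 change below 0. At 3 of them the groups did not overlap, with CSE-KO below, as at 23.0% of all distal regions. Summed over the 6 Maff regions, the 2 called ones included, the values were 1069, 971 and 897 in CSE-KO and 1574, 1509 and 1531 in WT. The region holding the RefSeq starts, also in the sum, had means of 447 in CSE-KO and 471 in WT.

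Jun had falls on both sides of its promoter, which itself was not called. The region 65.3 kb upstream (chr4:95117217-95117828, inside the RefSeq noncoding gene Junos) had 56, 55 and 52 in CSE-KO and 184, 169 and 168 in WT. This was a 3.16-fold fall with no overlap (log2 change -1.66 ± 0.15, adjusted p = 0.00277 by limma). The region 46.2 kb upstream, also inside Junos (chr4:95098176-95098703), had 83, 69 and 89 in CSE-KO and 174, 128 and 170 in WT and fell 1.94-fold (adjusted p = 0.0205). Downstream, 20.9 kb away (chr4:95031073-95031508), the values were 52, 55 and 25 in CSE-KO and 110, 116 and 121 in WT, a 2.74-fold fall with the third CSE-KO library lowest (adjusted p = 0.0215).

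Close to that fall, the Jun region 26.1 kb downstream rose. It had 72, 86 and 59 in CSE-KO and 36, 38 and 36 in WT (chr4:95025876-95026337, 1.93-fold, adjusted p = 0.0179). The 2 regions lie outside any RefSeq gene, and the groups did not overlap at either. Leaving out WT replicate 1, 2 or 3 ended both calls (adjusted p between 0.0643 and 0.0767), and the fall 46.2 kb upstream without WT replicate 1 or 3 (0.081 and 0.0811). The fall 65.3 kb upstream passed in all 14 alternative fits, as did the Maff fall 4.95 kb downstream. Over the 10 distal Jun regions, the called ones included, the sums were 867, 860 and 893 in CSE-KO and 1215, 1158 and 1172 in WT. The promoter values were higher in each CSE-KO library than in any WT library.

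**Figure D4:**
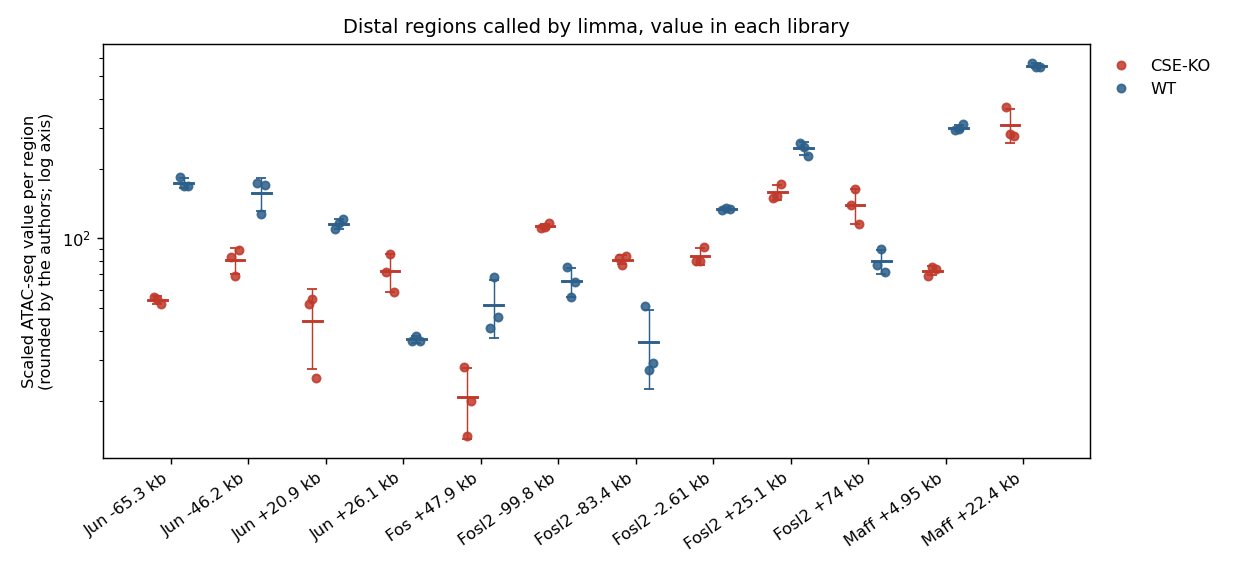
Value of each library (points) with the mean (bar) and SD (whiskers) at the 12 distal regions called by limma, on a log axis, 3 CSE-KO and 3 WT libraries each. Labels give the gene and the distance from its start site in kb (minus for upstream). The groups do not overlap at any of the 12, which were picked by the test on these same values. Over all distal regions 40.5% did not overlap. The 2 largest folds are the falls at Maff 4.95 kb downstream (4.09-fold) and Jun 65.3 kb upstream (3.16-fold).

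Fosl2 had the most calls, 3 higher and 2 lower, and the 2 lower ones were nearer the start site than the 3 higher ones. At the nearest, 2.61 kb upstream (chr5:32132977-32133404) the values were 80, 80 and 92 in CSE-KO and 132, 135 and 134 in WT (1.59-fold, adjusted p = 0.0289). At 25.1 kb downstream (chr5:32160529-32161187) they were 150, 153 and 171 in CSE-KO and 259, 247 and 227 in WT (1.54-fold, adjusted p = 0.0372). Groups were apart at both falls, with smaller folds than those at Maff and Jun.

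Of the other 6 distal Fosl2 regions, 3 rose. The remaining 3 were not called: the log2 change was -0.6 at 46.3 kb upstream (adjusted p = 0.133), 0.18 at 56.5 kb downstream (adjusted p = 0.658) and 0.13 at 61.9 kb downstream (adjusted p = 0.633). The region 83.4 kb upstream (chr5:32052095-32052687) had 82, 77 and 84 in CSE-KO and 51, 27 and 29 in WT (2.33-fold, adjusted p = 0.0221). Just inside the 100 kb limit, 99.8 kb upstream (chr5:32035779-32036179), the values were 111, 112 and 116 in CSE-KO and 75, 56 and 65 in WT (1.73-fold, adjusted p = 0.0238). Measured from the RefSeq start of Fosl2, this region lies at 100.5 kb, outside the limit. The regions 83.4 kb and 99.8 kb upstream both lie inside the RefSeq span of Babam2, a gene of a DNA repair complex. The third rise, 74 kb downstream (chr5:32209541-32210062), had 140, 164 and 115 in CSE-KO and 77, 90 and 72 in WT (1.73-fold, adjusted p = 0.0348), and the RefSeq start of Plb1, at 29.3 kb, is nearer to it than that of Fosl2. Just outside the limit, the region 101 kb upstream of Fosl2 had 51, 81 and 62 in CSE-KO and 63, 58 and 44 in WT.

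Leaving out 1 library ended Fosl2 calls. Each of the 5 was lost without WT replicate 2 and without WT replicate 3 (adjusted p between 0.0762 and 0.12), and 4 of them also without WT replicate 1 (0.0517 to 0.126), the exception being the region 83.4 kb upstream. The calls 2.61 kb upstream, 25.1 kb downstream and 74 kb downstream ended as well without CSE-KO replicate 1 or 2 (0.055 to 0.0714). Summed over its 8 distal regions, Fosl2 had 832, 875 and 871 in CSE-KO and 898, 853 and 796 in WT, so the groups overlapped.

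Fos had 1 call, the weak region 47.9 kb downstream (chr12:85521538-85522026). It had 28, 14 and 20 in CSE-KO and 41, 68 and 46 in WT, a 2.46-fold fall (log2 change -1.3 ± 0.3, adjusted p = 0.0284 by limma). It was lost when WT replicate 1, 2 or 3 or CSE-KO replicate 2 or 3 was left out (adjusted p between 0.0569 and 0.0927). Among the other 7 distal Fos regions the broad one 18.4 kb upstream had 291, 288 and 295 in CSE-KO and 396, 401 and 421 in WT, which was not called (log2 change -0.48 ± 0.15, adjusted p = 0.0665). Of the 8 distal Fos regions, 4 had every CSE-KO library below every WT library and 1 had every CSE-KO library above. The shares over all distal regions were 23.0% and 17.5%.

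No distal region of Junb, Fosb, Atf3, Egr1 or Ier2 was called, and Jund had none. At Junb, the regions 1.23 kb upstream and 2.27 kb downstream had values of 294, 280 and 236 and of 189, 274 and 202 in CSE-KO, against 313, 316 and 315 and 293, 289 and 320 in WT. Both were below WT in every CSE-KO library, as were 23.0% of all distal regions, without passing (adjusted p = 0.367 and 0.146). The 5 distal Fosb regions ran from a log2 change of -0.58 to 0.84. At 2 of them the groups did not overlap, both with CSE-KO below, where the share over all distal regions was 23.0%. The 4 Atf3 regions ran from -1.67, at a weak region with 11, 2 and 18 in CSE-KO and 25, 28 and 28 in WT, to 0.53 (lowest adjusted p = 0.0603). The 6 distal Ier2 regions ran from a log2 change of -0.28 to 0.15. The groups overlapped at all 7 Ier2 regions, where 39.5% of all regions did not overlap. The 38 distal regions of all members that were not called had an adjusted p of 0.0548 to 0.979.

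By RefSeq, 6 of the 12 called regions lie outside any gene, 2 in Junos, 2 in Babam2, 1 in Tmem184b and 1 in its own gene, Maff. Of the 43 distal regions whose gene has a RefSeq start in the table used, 4 are nearer to the start of another protein-coding gene, and 1 of these was called.

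Other genes of the pathway were counted in the same fit. Over all regions tested 7.70% were higher, 9.60% lower and 17.3% called. Over all promoter regions the shares were 5.23%, 3.29% and 8.52%. Further AP-1 and small Maf partners, such as Fosl1, Batf and Mafk, had 38 regions at 10 of 11 genes, of which 0 were higher and 5 lower, and 0 of their 10 promoter regions were called. The region 6.53 kb from Mafk, a small Maf protein like Maff, had 103, 89 and 80 in CSE-KO and 173, 151 and 170 in WT (1.81-fold lower, adjusted p = 0.0185). A region 25.2 kb from Batf3, a dendritic cell AP-1 factor, had 0, 3 and 10 in CSE-KO and 57, 36 and 44 in WT (adjusted p = 0.0214). One 35 kb from Maf had 11, 15 and 13 in CSE-KO and 25, 21 and 29 in WT (adjusted p = 0.0249). The list's median log2 change was -0.033, and 13.2% of its regions were called, against 17.3% of all regions.

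Other immediate early genes had 117 regions at 19 of 22 genes, of which 6 were higher and 10 lower (13.7% called, median log2 change -0.09). Their 20 promoter regions had 3 higher and 2 lower, where the shares over all promoter regions were 5.23% and 3.29%. The region 37.6 kb from Ier3, a survival factor, had 65, 43 and 46 in CSE-KO and 177, 190 and 183 in WT (3.58-fold lower, adjusted p = 0.00392). A region 77.8 kb from Klf10 fell 2.78-fold (adjusted p = 0.00465). One 21.5 kb from Rhob, a small GTPase, had 96, 86 and 100 in CSE-KO and 41, 33 and 27 in WT, a 2.77-fold rise (adjusted p = 0.00641).

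The kinases and serum response factors upstream had 52 regions at 13 of 15 genes, with 3 higher and 5 lower (15.4% called, median log2 change -0.15). Among them were 14 promoter regions with 0 higher and 1 lower, against 5.23% and 3.29% of all promoter regions. A region 31.6 kb from Map3k1, a kinase of the JNK pathway, fell 2.3-fold (adjusted p = 0.00763), one 64.1 kb from the ETS factor Elk3 fell 6.26-fold (adjusted p = 0.00236), and one 12.4 kb from Elk4 rose 2.04-fold (adjusted p = 0.0329). Classical AP-1 targets had 35 regions at 9 of 11 genes, with 5 higher and 3 lower (median log2 change -0.005). Of these regions 22.9% were called, against 17.3% of all regions. Of their 9 promoter regions 0 were called, against 8.52% of all promoter regions. The region 2.29 kb from Plau, the urokinase gene, had 57, 64 and 61 in CSE-KO and 22, 29 and 24 in WT (2.38-fold higher, adjusted p = 0.00664). A region 9.79 kb from Vim, the intermediate filament vimentin, fell 3.49-fold (adjusted p = 0.00561).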

How the data were processed

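The genome build was mm10, and the tools were DESeq2 1.26.0, Picard 3.1.1, STAR 2.7.3a and Trimmomatic 0.39, per the submitters' processing notes. What each did, which peak caller was used and whether reads were shifted for Tn5 is not given in these sources. Libraries were read as 38 bp pairs, per the labels' protocols. The deposited values are treated as a score: whole numbers whose scaling and skipped values mark counts divided by a size factor and rounded, so no count model was run. Coordinates are the file's own.

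From these values, limma 3.58.1 in R 4.3.3 was run on log2(value + 1) where the mean value was 5 or more, which kept 58129 regions, with Benjamini-Hochberg adjustment over all of them. Fold changes are on that scale, which understates changes of weak regions. All 58 member regions passed the filter. Nearest start sites came from 12711 protein-coding genes of the table. Trailing semicolons were removed from 385 symbols. Every promoter region and every called region of a member is named with all library values, and for a member with neither, its region with the highest mean. Other lists are named by up to 3 called regions, 1 per gene, with the smallest p. A gene that this rule takes is not reported here. Members and lists were chosen with earlier results of these data known. Scripts were tested on simulated data. No 2 libraries were copies: at most 3.68% of values were equal between libraries of a group. RefSeq (GRCm38.p6) gave gene spans and promoter sequences.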

Additional observations from a re-analysis of the deposited data

How the results depend on the processing

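The counts were 4 regions higher, 8 lower, 0 promoter and 12 distal called. With limma's trend and robust options they were 9 higher, 16 lower, 2 promoter and 23 distal. Calls over all 58129 regions in that fit were 7185 higher and 8263 lower, in place of 4478 and 5579. With the gene symbol in the table alone the member counts were 0 higher, 2 lower and 2 distal. With start sites within 50 kb they were 1 higher, 7 lower and 8 distal. Fewer regions entered both. Leaving out 1 library gave 0 to 4 higher, 2 to 9 lower, 0 promoter and 2 to 13 distal. Without WT replicate 1, 2 or 3 the distal calls were 3, 3 and 2, and calls over all regions were 3602, 3684 and 3519 in place of 10057; without CSE-KO replicate 2 the lower calls were 5. Scaling, pseudocount, low-value filters, the promoter distance of 2.5 kb and, chosen after seeing the data, RefSeq starts and symbols with the semicolon kept left each count within 1.5 times.

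With the replicate number as a block there were 2 higher, 4 lower and 6 distal calls (6013 over all regions). The correlations of same-numbered libraries' deviations from their group means were -0.00593, -0.0105 and 0.0105, so no pairing by number showed in them. A small or local effect shared by same-numbered libraries would not show here, and the labels give only a number. Libraries 1 and 2 of CSE-KO correlated best with another number (0.014 and 0.0125).

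Only the Maff region 4.95 kb downstream and the Jun region 65.3 kb upstream kept their calls in all 14 alternative fits (adjusted p up to 0.0194 and 0.0214). Changes near 0 turned sign. With each library scaled to the same total the Junb and Fosl2 promoters had log2 changes of -0.05 and -0.032. Without 1 library the Junb promoter ran from -0.042 to 0.038, the Fosl2 promoter from -0.014 to 0.085 and the Ier2 promoter from -0.22 to 0.031. The cause was not tested. The fewer reads of the CSE-KO libraries limit weak regions there.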
